A study of Rattus norvegicus with 12 samples.

Results

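Conjugated linoleic acid (CLA) fed to dams and passed to rat pups in milk was compared with the same supplement mix given to pups by gavage. The members of the comparison are 6 of the 12 arrays of the series, the 3 arrays of group A and the 3 of group B, chosen by their labelled feeding and not by any measured value. All pups were Wistar rats, and messenger RNA of the mesenteric lymph nodes, taken at the end of suckling, was hybridised to Affymetrix Rat Genome 230 2.0 arrays, 1 array per pup. Dams of group A ate a diet with 1% of an 80:20 mix of the cis-9,trans-11 and trans-10,cis-12 isomers in gestation and suckling, so these pups received CLA for 5 weeks, 2 in gestation and 3 through milk. Dams of group B ate the same CLA diet in gestation and a standard diet in suckling, and their pups received the mix daily by oral gavage for the 3 suckling weeks, again 5 weeks in all. CLA in gestation was therefore common to both groups, and no pup of either group was without CLA. Group C, gavaged for 3 weeks after a gestation without CLA, and group D, whose dams ate a standard diet and which received no CLA, stand beside them with 3 arrays each. The groups compared differ in more than the route: the diet of the suckling dam, the daily handling and a separation from the dam before gavage went with group B, and the dose that group A took in with milk was not measured in these files. The isomers that reached the pups differed too. By the study's account the trans-10,cis-12 isomer made up a larger share of plasma CLA in group A than in group B. The litter of each pup was not given in the sources used here, so litter and group cannot be told apart.

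CLA isomers are fatty acids of ruminant fat. They are ligands of the peroxisome proliferator-activated receptors (PPARs), nuclear receptors that switch on genes of fatty acid uptake and oxidation, and they can take the place of linoleic acid in the synthesis of eicosanoids. The mesenteric lymph nodes drain the intestine. Lymphocytes enter them from the blood through high endothelial venules, meet antigen carried in by dendritic cells, and among the products of the nodes are B cells bound for IgA secretion in the gut.

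The authors' deposited MAS5 signal intensities had array medians of 27.6 to 32.9 in group A and 19.3 to 30.9 in group B, and were quantile normalized on the log2 scale. All levels below are normalized log2 intensities, and all differences are group A minus group B on that scale, with the mean ± SD of 3 arrays per group, tested two-sided with limma over 31042 probe sets. Background was the 95th percentile of 27 control probe sets for spike transcripts taken to be absent from the samples, 2.33 to 3.20 over the 6 arrays. With 3 arrays a side no exact permutation test can reach a p under 0.1, so adjusted p-values lean on the spread that limma pools over probe sets and groups, and the p-values measure only the spread between these pups. Markers of the labelled tissue were present. T cell genes had a mean level of 8.58 to 8.85 in group A and 8.53 to 8.72 in group B, B cell genes 8.53 to 8.79 and 8.66 to 8.73, and the stromal chemokine Ccl21 stood at 11.97 ± 0.23 and 11.88 ± 0.07. Defining genes of gut epithelium were near background (Fabp2 at 0.00 ± 0.00 and 0.74 ± 1.29). Ratios of 3' to 5' signal, a measure of RNA integrity, were 2.84 to 4.96 for hexokinase in group A against 1.62 to 3.24 in group B, 1.21 to 1.53 against 1.10 to 1.12 for Gapdh, and 1.37 to 1.79 against 1.44 to 1.79 for beta-actin.

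The lymph nodes of milk-fed and gavaged pups differed widely, in both directions. In group A 2915 probe sets were called lower (adjusted p under 0.05 and at least 2-fold), which is 9.39% of those tested, and 2051 were called higher, 6.61%. The falls ran deeper: 874 probe sets were lower by more than 4-fold and 218 higher. The 3 arrays of group A lay wholly outside the range of group B at 4932 of the 4966 calls. Calls are chosen for a difference between these same arrays, so this count describes them and is no separate evidence. With 1 probe set per gene, the brightest, 2136 of 14217 genes (15%) were lower at an adjusted p under 0.05 and 3823 (26.9%) were higher, with a median over all genes of 0.30. These shares are the background for the gene lists below.

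The balance between falls and rises depended on how the arrays were scaled. Of the 2-fold calls, 58.7% were lower in group A after quantile normalization and 58.8% after 75th-percentile centring. As deposited, where the median over all probe sets was 0.42 in place of 0.10, the calls were 1768 lower and 4816 higher, 26.9% lower. Scaled to the added hybridization spikes, an alternative chosen after seeing the data, they were 3417 and 1420, 70.6% lower. The spikes of group B replicate 3, the dimmest of the 6 arrays, were at a geometric mean intensity of 305 against 525 and 632 in the other gavaged pups and 624 to 639 in group A. Differences are therefore best read relative to the bulk of the probe sets.

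These probe sets were chosen on the difference between groups A and B, whose values are given as a description. Groups C and D entered that choice only through the normalization and the pooled spread, so their levels are not fully independent of it. Without group D replicate 3 in the fit, 3205 probe sets were called lower and 2231 higher. The levels of groups C and D place the probe sets on the full series. Over the probe sets called lower, the median level centred on the mean of the 12 arrays was -1.12, -1.12 and -0.95 in the pups of group A and 0.50, 0.58 and 0.56 in those of group B. Group C, gavaged too, stood at 0.49 to 0.57, beside group B. In group D, replicates 1 and 2 stood at -0.15 and -0.12, between groups A and B, and replicate 3 at 0.51, beside the gavaged pups. Over the probe sets called higher the order was turned: group A at 0.73 to 0.89, group B at -0.47 to -0.38, group C at -0.35 to -0.28, and the pups of group D at 0.21, 0.15 and -0.34. Thus the pups without CLA did not stand together, and on the lower probe sets replicates 1 and 2 lay nearer to group B than to group A.

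**Figure D1:**
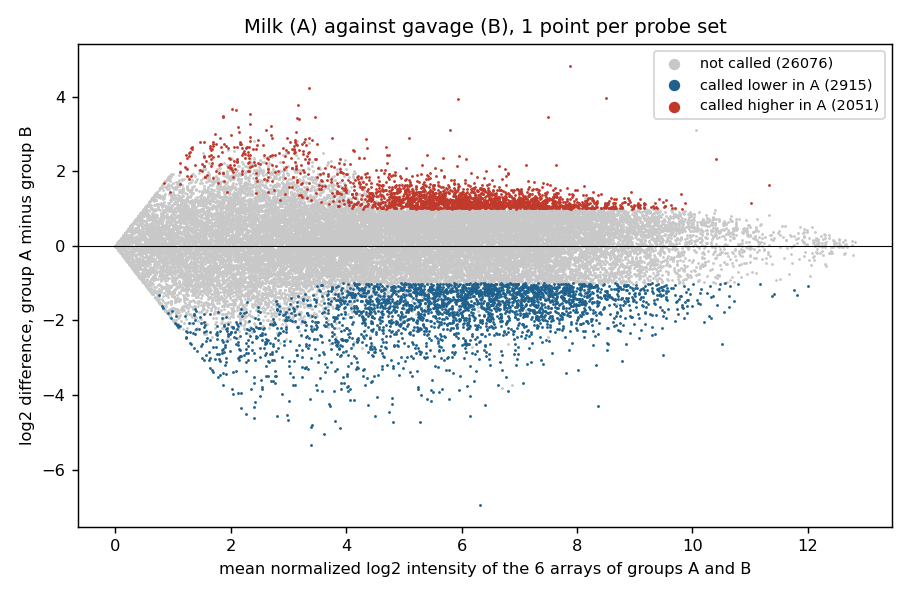
Log2 difference of group A minus group B against the mean normalized log2 intensity of the 6 arrays, 1 point per probe set. The 2915 probe sets called lower in group A (blue) reach further from 0 than the 2051 called higher (red) over most of the intensity range, and 26076 were not called (grey).

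The deepest fall in group A was on 1 probe set of RT1-Bb, given with the RT1 genes below, followed by Gpbp1, Resf1, Ptprc and Magt1. Ptprc, which encodes CD45 and sets the threshold of antigen receptor signalling, was at 6.68, 5.64 and 6.34 in the milk-fed pups and at 10.55, 10.70 and 10.28 in the gavaged pups on one probe set. The groups did not overlap, and the level was 19.6-fold lower in group A (difference -4.29 with a standard error of 0.36, limma adjusted p = 7.09e-06). On its brightest probe set Ptprc was at 8.94, 9.28 and 9.33 against 10.77, 10.82 and 10.78, a 3.04-fold difference (-1.61, adjusted p = 0.000173), so the size of the fall rests on the probe set while its direction does not. In group D Ptprc was at 9.23, 9.11 and 10.74 on the first of these, and so between groups A and B in replicates 1 and 2.

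Magt1, a magnesium transporter that also serves N-glycosylation, was at 4.53, 3.93 and 4.33 in group A and at 8.47, 8.56 and 8.59 in group B. It was 19.4-fold lower (-4.28, standard error 0.17, adjusted p = 6.46e-08 from limma), with groups C and D at 8.11 to 8.74, so that group A alone stood low among the 4 groups. Resf1, a silencer of retroelements, lay within background in all 3 pups of group A (2.47, 2.20 and 2.64) against 7.17, 7.5 and 6.85 in group B, at least 19.8-fold lower (adjusted p = 5.05e-05), and its brightest probe set differed by -1.76. Gpbp1, a transcription factor of GC-rich promoters, gave 2 of the 15 largest falls, 20.8-fold and 16.5-fold once the value of 1 pup within background was raised to it, and -1.88 on its brightest probe set.

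The same pattern of a deep fall on a dimmer probe set and a shallower one on the brightest ran through most of the others. Sf3b1, the largest subunit of the spliceosome's SF3b complex, was at 3.59, 3.88 and 4.91 in group A and at 8.0, 8.45 and 8.05 in group B on one probe set (16.4-fold, adjusted p = 0.000947 from limma). Its brightest probe set differed by -1.94 and the third by -2.25. The RNA helicases Ddx3x and Dhx36 were each 17.2-fold lower on 1 probe set (adjusted p = 1.89e-06 and 8.91e-06) and lower by smaller margins on the others, -1.07 for Ddx3x and -0.82 to -2.22 for Dhx36. Top2b, a topoisomerase, Pnrc2, which acts in mRNA decay, Nipbl, which loads cohesin onto DNA, Zfp292, a zinc finger protein, and Hnrnpa3, an RNA-binding protein, differed by -3.92 to -3.86 on their deepest probe sets. On their brightest, Zfp292 differed by only -0.24 without passing (adjusted p = 0.656), and the other 4 by -1.70 to -1.16. A dimmer probe set of Nipbl and 1 of Zfp292 did not pass either (adjusted p = 0.515 and 0.138). Ranbp2, a filament protein of the nuclear pore, was 13.5-fold lower on 1 probe set, but its brightest differed by only -0.48 without passing (adjusted p = 0.0888).

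Apart from genes of the major histocompatibility complex, the largest rises in group A were of calprotectin and of several regulators of transcription. S100a8, 1 subunit of the calcium-binding calprotectin that fills the cytosol of neutrophils, was at 6.86, 6.74 and 6.0 in group A and at 4.67, 3.49 and 2.81 in group B, 7.36-fold higher (2.88, standard error 0.83, adjusted p = 0.0186 from limma). Without group A replicate 1 or 2, or group B replicate 2 or 3, this call was lost. S100a9, the other subunit, was at 7.62, 7.08 and 6.76 against 5.57, 4.35 and 4.31, 5.31-fold higher (2.41, standard error 0.51, adjusted p = 0.00309). The groups did not overlap in either subunit, and group C replicate 2, a gavaged pup, was as high as the milk-fed pups in S100a9 at 7.13.

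Foxp4, a forkhead repressor, was at 6.92, 6.99 and 6.69 in group A and at 5.14, 4.25 and 4.12 in group B (5.16-fold, adjusted p = 5.37e-05 from limma). Setd1b, a histone methyltransferase, was 8.66-fold higher (adjusted p = 0.00967), though group D replicate 2 at 7.02 lay within the range of group A. Zfp523, a zinc finger activator, was at least 5.77-fold higher with all 3 gavaged pups within background, and its other probe set differed by 0.10 (adjusted p = 0.93). Thap11, a zinc finger factor, was 5.30-fold higher with the dim values raised to background, and 1.93-fold higher on its brightest probe set (adjusted p = 0.00059). Metrn, a secreted protein that promotes growth of nerve processes, was at 5.28, 4.90 and 4.96 in group A and within background in every pup of group B (0.48, 2.11 and 1.26), at least 5.27-fold higher (adjusted p = 7.71e-05). Eeig2 was 5.95-fold higher on 1 probe set after raising 1 dim value to background, while its brighter probe set was lower (-0.77, adjusted p = 0.000759), so its direction is uncertain.

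Of the remaining rises, that of the trypsinogen Prss3 (5.39-fold, adjusted p = 0.031 from limma) was lost without any 1 pup of group A or without group B replicate 2 or 3. LOC100910237 was at least 7.10-fold higher. Bmyc, a Myc relative, and Ubox5, a ubiquitin ligase, were 5.23-fold and 5.46-fold higher after the value of 1 pup of group B was raised to background, but the brighter probe set of Ubox5 differed by 0.68 without passing (adjusted p = 0.137).

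**Figure D2:**
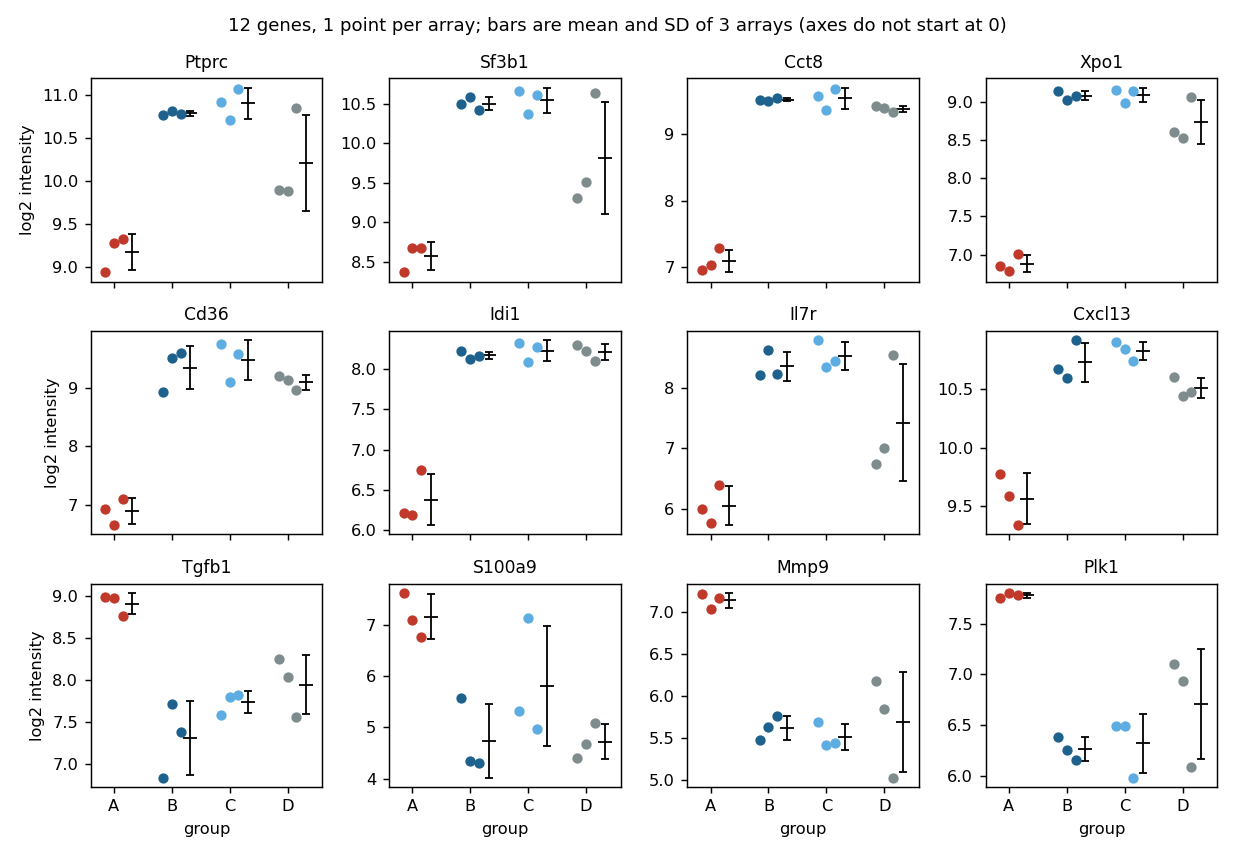
Normalized log2 intensity of 12 genes on their brightest probe sets, 1 point per array, with the mean and SD of the 3 arrays of each group (A milk, B gavage, C gavage in suckling only, D no CLA). Group A stands clear of group B in all 12, low in the first 8 and high in Tgfb1, S100a9, Mmp9 and Plk1, while group D replicates 1 and 2 lie between groups A and B in genes such as Ptprc, Sf3b1 and Il7r but beside group B in Cct8 and Idi1.

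The largest differences in either direction belonged to the RT1 genes, the rat's major histocompatibility complex, whose class I and class II products present peptides to T cells. They are many, near-identical and variable between animals even within an outbred stock such as Wistar. Of 31 RT1 probe sets of 18 symbols, 3 were called lower and 8 higher, against 9.39% and 6.61% of all probe sets, so the count of falls was near the share over the array. RT1-Bb, a class II beta chain, was at 3.49, 2.13 and 2.92 in group A and at 10.45, 9.37 and 9.57 in group B on one probe set, a 96.4-fold difference with the 1 value within background raised to it (adjusted p = 0.000741 from limma). Group C fell on both sides, at 3.79, 9.59 and 3.45. On the other probe set of RT1-Bb only group B replicate 1 was low, at 3.20 against 11.13 to 11.88 in the other 5 pups of the comparison (adjusted p = 0.142).

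RT1-CE10, a class I gene, was at 10.61, 10.27 and 10.58 in group A and at 6.61, 6.35 and 6.63 in group B, 15.5-fold higher (adjusted p = 0.000367 from limma). Here group C was high at 9.67 to 10.26 and group D was split, at 6.82, 6.59 and 9.77. Groups B and C, both gavaged but unlike in gestation, thus stood apart, and the part of the route was not tested. RT1-CE12 showed the same arrangement of pups, 5.00-fold higher in group A (adjusted p = 0.00562) with group D at 8.76, 8.53 and 11.29. RT1-CE16 was 10.9-fold higher and RT1-A3 5.42-fold higher, and RT1-A was 5.20-fold lower (adjusted p = 0.0182), again with group C on both sides at 4.25, 7.54 and 4.15. In contrast RT1-Da, a class II alpha chain, lay at 11.80 ± 0.13 in group A and 12.06 ± 0.08 in group B. The haplotypes of the pups were not given and their part in these values was not tested. Probe sets of near-identical genes cannot assign signal to 1 copy, so the gene names here are uncertain.

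**Figure D3:**
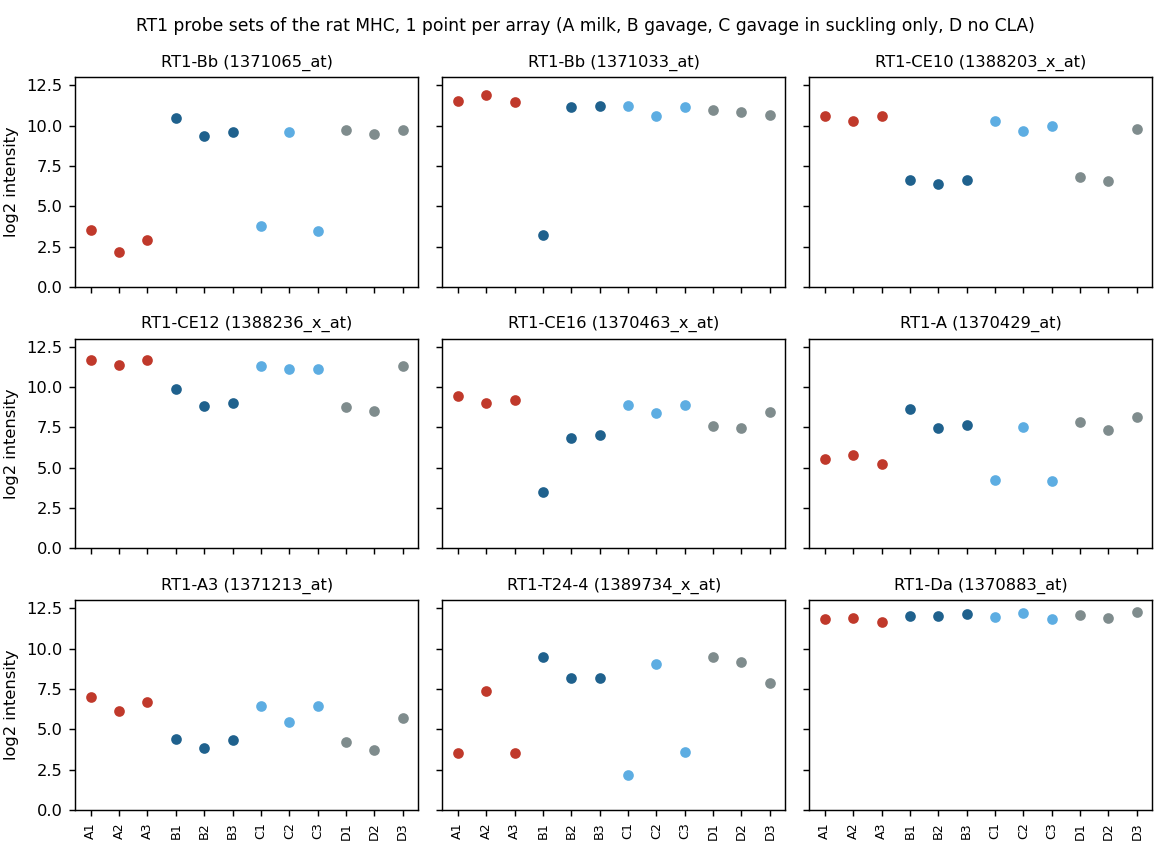
Normalized log2 intensity of 9 RT1 probe sets in each of the 12 arrays (A milk, B gavage, C gavage in suckling only, D no CLA), all on 1 scale. Several probe sets take either a high or a low level in each pup, as RT1-Bb does in the first panel at 2.13 to 3.79 or 9.37 to 10.45, and the split cuts across groups C and D, while RT1-Da stays near 12.

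Proteins that bind, unwind and splice RNA were lower in milk-fed pups. Of 25 hnRNPs and RNA helicases, 22 were lower and 1 higher (against 15% and 26.9% of all genes), with a median of -1.0 beside 0.30 for all genes, and negative under each scaling (-0.39 as deposited). As deposited, however, only 9 were lower and 2 higher. Hnrnpa1, which coats nascent transcripts and steers splice site choice, was at 8.82, 8.37 and 8.48 in group A and at 10.38, 10.64 and 10.28 in group B. It was 3.67-fold lower (-1.88, standard error 0.13, adjusted p = 1.51e-06 from limma), with groups C and D at 10.43 or above. Hnrnpa3 on its brightest probe set (-1.58) and the helicases Ddx1 (-1.49) and Ddx50 (-1.54) were lower as well. Dimmer probe sets of Ddx50 differed by 1.44 and -0.29 without passing (adjusted p = 0.154 and 0.659). The exception was Hnrnpl, higher by 0.57 (adjusted p = 0.000381).

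Of 35 splicing factors 18 were lower and 4 higher (median -0.59). Clk1, the kinase that phosphorylates SR proteins, was at 7.88, 8.13 and 8.52 in group A and at 10.41, 10.66 and 10.54 in group B, 5.14-fold lower (-2.36, standard error 0.40, limma adjusted p = 0.000788). In group D it was at 8.45 and 8.75 in replicates 1 and 2, close to group A, and at 10.58 in replicate 3. Son, a scaffold of nuclear speckles, Rbm5 and Tra2b, regulators of alternative exons, were lower too, with differences of -1.57, -1.35 and -1.33. Srsf4 and U2af2 were higher, by 0.53 and 0.56 (adjusted p = 0.00155 and 0.00522), and the core proteins Sf3b3 and Prpf8 differed by 0.03 and 0.04 without passing (adjusted p = 0.901 and 0.859).

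Transport through the nuclear envelope moved the same way. Of 29 genes of nuclear import and export, 18 were lower and 2 higher (median -0.64, and -0.20 as deposited). As deposited, however, only 4 were lower and 2 higher. Xpo1, the main exporter of proteins and ribosomal subunits from the nucleus, was at 6.85, 6.79 and 7.0 in group A and at 9.14, 9.03 and 9.07 in group B, 4.58-fold lower (-2.20, standard error 0.14, adjusted p = 9.78e-07 from limma) and also lower on its second probe set (-1.35). The importins Kpna1 and Kpnb1, which carry cargo with a nuclear localization signal, differed by -1.87 and -1.09, and the pore scaffold Nup155 by -1.48. Dimmer probe sets of Kpna1 differed by -0.63 and -0.35 without passing (adjusted p = 0.0538 and 0.156). The GTPase Ran, which gives this transport its direction, stood at 10.96 ± 0.11 and 11.03 ± 0.06 and did not pass (adjusted p = 0.672). Ipo4 was higher by 0.86 and Nup98 by 0.68, though a dimmer probe set of Nup98 differed by -0.53 without passing (adjusted p = 0.278). Of 26 chromatin regulators 12 were lower and 7 higher, with a median of -0.38 that turned to 0.10 as deposited. The remodeller Smarca5 (-1.68) and the histone demethylase Kdm5a (-1.20) were lower, while the acetyltransferase Ep300 (0.65) and the acetyl-lysine reader Brd2 (0.71) were higher on their brightest probe sets. A dimmer probe set of Ep300 went the other way without passing (-1.05, adjusted p = 0.0887).

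Genes that make and fold proteins were lower in milk-fed pups in part of their complexes. The CCT chaperonin, a ring of different subunits that folds actin and tubulin, went furthest: with the mitochondrial chaperonin, 8 of its 10 listed genes were lower and none higher, with a median of -1.42 and negative under each scaling (-0.72 as deposited, with 5 lower). Cct8 was at 6.96, 7.04 and 7.28 in group A and at 9.51, 9.5 and 9.54 in group B, 5.37-fold lower (-2.42, standard error 0.11, adjusted p = 2.24e-07 from limma). Groups C and D lay at 9.33 to 9.68, beside the gavaged pups. Tcp1, the first subunit, was 4.56-fold lower, but Cct7 differed by -0.28 without passing (adjusted p = 0.201). Among the mitochondrial partners, Hspd1 was lower (-1.27) and Hspe1, its lid, differed by -0.17 (adjusted p = 0.322).

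Cytosolic heat shock proteins were divided. Of 16, 7 were lower and 4 higher, with a median of -0.42 that became 0.03 as deposited. The constitutive co-chaperone Dnaja1 was lower, at 8.04, 8.10 and 8.30 in group A and 9.46, 9.64 and 9.79 in group B (-1.49, standard error 0.11, adjusted p = 3.78e-06 from limma). The stress-inducible co-chaperone Dnajb1 was higher, at 9.23, 9.38 and 9.28 against 8.29, 8.17 and 8.24 (1.07, standard error 0.14, adjusted p = 0.000132). Both held on their second probe sets (-1.16 and 0.90). With Dnajb1 were the inducible Hspa1a (1.36), its co-chaperone Bag3 (1.07) and the heat shock factor Hsf1 (0.64), and with Dnaja1 were Hspa9 of mitochondria (-1.59) and Hspa4, a nucleotide exchange factor (-1.50). The promoters of Dnaja1 and Dnajb1 are shown because the genes differed in direction and each holds 2 copies of GAANNTTC, the inner letters of a heat shock element. They are RefSeq sequence of build GRCr8 (Dnaja1 chr5:60638154-60638453, plus strand, and Dnajb1 chr19:41431092-41431391, minus strand), from 250 bases before to 50 after the gene's start, with the motif in capitals. The motif reads the same on both strands. Of 13 genes of the list with a promoter sequence 6 held it (46.2%), against 8.34% of 27457 promoters of the same length.

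Dnaja1: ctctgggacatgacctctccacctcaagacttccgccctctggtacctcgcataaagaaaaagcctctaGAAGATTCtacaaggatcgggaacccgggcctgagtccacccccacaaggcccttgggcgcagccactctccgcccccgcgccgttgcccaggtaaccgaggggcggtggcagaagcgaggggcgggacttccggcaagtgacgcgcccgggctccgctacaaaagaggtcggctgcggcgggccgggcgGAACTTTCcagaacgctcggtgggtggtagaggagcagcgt

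Dnajb1: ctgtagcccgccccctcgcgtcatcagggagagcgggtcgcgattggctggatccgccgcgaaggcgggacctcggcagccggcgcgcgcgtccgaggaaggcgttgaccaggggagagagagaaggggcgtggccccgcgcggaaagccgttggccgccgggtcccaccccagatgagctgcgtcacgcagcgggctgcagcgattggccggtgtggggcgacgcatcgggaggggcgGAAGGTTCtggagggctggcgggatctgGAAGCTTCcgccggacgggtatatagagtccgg

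A match to these letters describes the sequence only. In the endoplasmic reticulum 8 of 18 folding genes were lower and 3 higher (median -0.27, and 0.21 as deposited). Hsp90b1 and Hspa5, its main chaperones, were lower by differences of -1.63 and -1.02, whereas the translocon subunit Sec61a1 was higher (0.72).

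In translation, 13 of 21 initiation factors were lower and 3 higher, with a median of -0.48 that was 0.15 as deposited. Eif2s2, a subunit of the factor that brings the initiator tRNA, was at 8.28, 8.48 and 8.38 in group A and at 10.25, 10.25 and 10.18 in group B, 3.6-fold lower (-1.85, standard error 0.12, adjusted p = 1.28e-06 from limma). Its partner Eif2s1 was lower (-1.32), and Eif6, which keeps the ribosomal subunits apart, was higher (0.80). Among the 20 aminoacyl-tRNA synthetases 7 were lower in milk-fed pups and 2 higher. The leucyl-, arginyl- and glutamyl-prolyl-tRNA synthetases Lars1, Rars1 and Eprs1 differed by -2.18, -1.86 and -1.80, and Farsa and Vars1 by 1.12 and 1.14. The median of this list was -0.17, and it was positive as deposited (0.39) and with 75th-percentile centring (0.05).

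The cytosolic ribosome was split between its proteins. Of 22 genes 7 were lower and 2 higher, with a median of -0.01 that was positive under the other 3 scalings (0.04 to 0.47), and none passed as deposited. After adjustment of each array for gene length, an alternative added after seeing the data, 18 were lower and none higher. Rpl5, which carries 5S ribosomal RNA, was at 11.29, 10.90 and 11.23 in group A and at 12.45, 12.48 and 12.47 in group B (-1.33, standard error 0.11, adjusted p = 6.11e-06 from limma). In contrast Rps9, Rplp0 and Rps23 differed by 0.02 to 0.03. Proteasome genes were divided as well, 12 of 29 lower and 5 higher (median -0.28, but 0.43 as deposited and 0.08 with 75th-percentile centring). Psma4 of the core ring was lower (-1.55, adjusted p = 9.24e-07) as were Psma1 and Psmd6, while Psmd3 of the cap (1.08) and the catalytic Psmb5 (0.70) were higher. In the respiratory chain 14 of 33 genes were higher and 8 lower (median 0.18, below that of all genes), which became 4 higher and 12 lower after adjustment for gene length. The 3 deepest changes were nevertheless falls, of Uqcrc2 of complex III (-2.08, adjusted p = 7.36e-07), Ndufs1 of complex I (-1.47) and Sdha of complex II (-1.40), against rises of at most 0.96, for Cox5a.

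**Figure D4:**
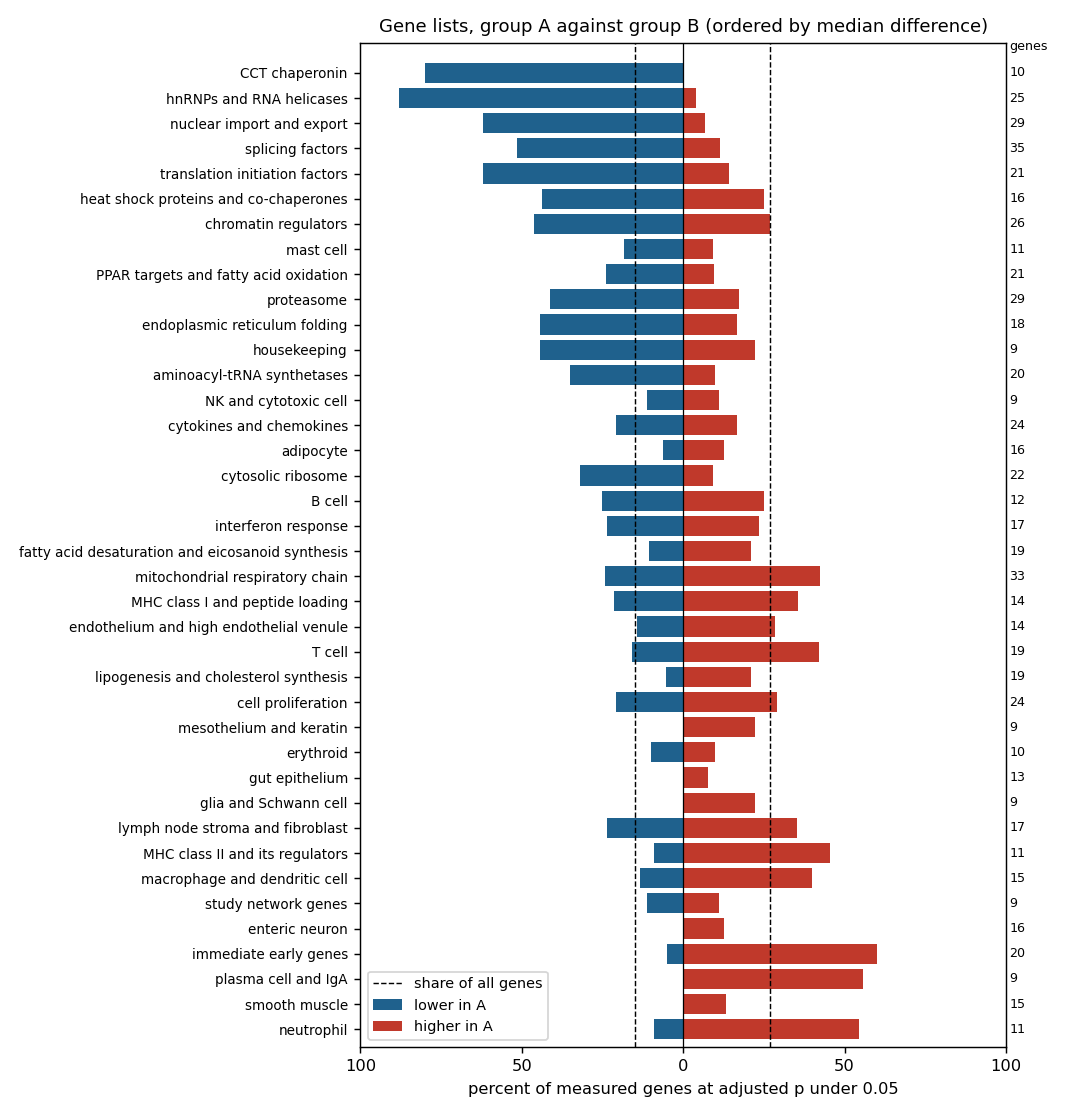
Share of the measured genes of each of 39 lists that were lower (blue, left) or higher (red, right) in milk-fed pups (adjusted p under 0.05), ordered by the median difference, with the number of genes at the right. The dashed lines mark the shares over all genes, 15% lower and 26.9% higher. The CCT chaperonin (8 of 10) and the hnRNPs and RNA helicases (22 of 25) have the largest shares lower, and immediate early genes (12 of 20) the largest share higher.

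Several neutrophil and plasma cell genes were higher in milk-fed pups, and lymphocyte genes were mixed. In bulk tissue fewer cells of a type and less RNA per cell cannot be told apart. Of 11 neutrophil genes 6 were higher and 1 lower, with a median of 1.52 that stayed between 1.40 and 1.66 under the other scalings. Beside S100a8 and S100a9 these were Mmp9, the gelatinase of their granules, at 7.22, 7.04 and 7.17 in group A and 5.47, 5.63 and 5.76 in group B (1.52, standard error 0.25, adjusted p = 0.000668 from limma), the iron-binding Lcn2 (1.71), the ficolin Fcnb (1.53) and the growth factor receptor Csf3r (1.14). The collagenase Mmp8 was lower (-1.01, adjusted p = 0.0106). Camp and Cxcr2 were near background and did not pass. Of 9 plasma cell and IgA genes, 5 were higher in milk-fed pups with none lower (median 0.77, positive under each scaling). Mzb1, a chaperone of antibody assembly, was at 9.11, 9.34 and 8.92 in group A and at 8.10, 8.06 and 8.14 in group B (1.02, adjusted p = 0.0023). Tnfrsf17, the receptor that keeps plasma cells alive, was higher by 1.54, and Jchain, which links IgA units, differed by 0.78 without passing on its brightest probe set (adjusted p = 0.0769) and was higher by 0.82 on its other (adjusted p = 0.00679).

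Among 12 B cell genes 3 were higher and 3 lower, so B cells as a group showed no shared direction (median 0.10). Cr2, the complement receptor of mature B cells and follicular dendritic cells, was at 7.93, 8.17 and 7.73 in group A and at 9.87, 10.03 and 10.20 in group B, 4.27-fold lower (-2.09, standard error 0.34, adjusted p = 0.000629 from limma). It was lower on 3 of its 4 other probe sets. Group D was at 8.54 and 8.27 in replicates 1 and 2 and at 10.06 in replicate 3. Ms4a1, the CD20 gene, was lower (-0.84), and the tetraspanin Cd37 was higher (0.86).

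Of 19 T cell genes 8 were higher and 3 lower (median 0.26). The signalling genes Cd6 (0.92), Zap70 (0.77) and Cd3e (0.52) and the transcription factor Lef1 (0.56) were higher. Il7r, the receptor of the survival cytokine interleukin 7, went against them. It was at 5.99, 5.77 and 6.40 in group A and at 8.21, 8.63 and 8.24 in group B, 4.95-fold lower (-2.31, standard error 0.36, adjusted p = 0.000486 from limma), and -1.77 on its other probe set. Its ligand Il7, made by lymph node stroma, was lower too (-1.39, adjusted p = 0.00426). In group D, Il7r was at 6.73, 7.01 and 8.54. The co-receptor Cd8a was lower (-0.56) and Cd4 differed by 0.19 without passing (adjusted p = 0.635).

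Macrophage and dendritic cell genes were higher at 6 of 15 and lower at 2 (median 0.52). Cd68 of lysosomes was higher (1.00, adjusted p = 0.00849 from limma) with the complement genes C1qa and C1qc (0.73 and 0.92). The mannose receptor Mrc1 was lower (-1.18). Without group B replicate 3, 5 genes were higher and none lower, and after adjustment for gene length 1 was higher and 3 lower. Mast cell genes gave 2 lower and 1 higher of 11, with the granule protease Cpa3 lower (-1.88, adjusted p = 0.00105) at 5.02 to 5.73 in group A and 6.65 to 7.82 in group B. Other mast cell proteases such as Mcpt1 and Cma1 did not pass. Of 9 genes of natural killer and cytotoxic cells, Prf1, the pore-forming perforin, was higher (0.53) and the receptor Klrk1 lower (-0.90).

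In antigen processing, Tap2, a subunit of the pump that loads peptides onto class I molecules, was at 8.4, 8.2 and 8.43 in group A and at 6.78, 6.94 and 6.43 in group B (1.63, standard error 0.21, adjusted p = 0.000117 from limma). Its partner Tap1 was higher by 0.92, and the trimming protease Erap1 was lower (-1.33). B2m, the light chain of class I, differed by -0.13 on its brightest probe set without passing (adjusted p = 0.345). On its other probe set B2m was lower by a difference of -0.47 (adjusted p = 0.0221). Of 11 class II genes and regulators 5 were higher and 1 lower, with RT1-DMa, which helps load peptides, at 0.93 and the master regulator Ciita at 0.67. The invariant chain Cd74 stood at 12.50 ± 0.01 and 12.36 ± 0.07 and did not pass (adjusted p = 0.282).

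Interferon-induced genes fell on both sides, with 4 of 17 lower and 4 higher. The guanylate-binding protein Gbp2 (-1.59, adjusted p = 5.73e-05 from limma), the antiviral GTPase Mx1 (-1.50) and Ifi44 (-1.46) were lower, while Irf7, the factor that amplifies interferon production (1.23, adjusted p = 0.0006), and the RNA sensor Oas1a (1.19) were higher. The median was 0.12, and with 75th-percentile centring -0.02 and with the spikes -0.11. Cytokines and chemokines gave 5 lower and 4 higher of 24 (median -0.04), or 9 lower and 1 higher after adjustment for gene length. Cxcl13, which draws B cells into follicles, was at 9.77, 9.58 and 9.34 in group A and at 10.67, 10.60 and 10.92 in group B (-1.16, standard error 0.12, adjusted p = 3.43e-05), a call lost as deposited. Il18 was lower as well (-1.65). The opposite was seen for Tgfb1, the cytokine that directs the switch to IgA, which was at 8.99, 8.99 and 8.77 in group A and at 6.84, 7.72 and 7.39 in group B, 3.03-fold higher (1.60, standard error 0.21, adjusted p = 0.000162). Tnf was higher by 1.03. Ifng and Il4 lay within background in both groups.

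Among lipid genes the fatty acid transporter Cd36 differed most. It was at 6.92, 6.65 and 7.10 in milk-fed pups and at 8.93, 9.52 and 9.59 in gavaged pups, 5.48-fold lower (-2.45, standard error 0.20, adjusted p = 5.61e-06 from limma). Groups C and D lay at 8.95 to 9.75, so that group A alone was low. Cd36 is a PPAR target that takes up long-chain fatty acids. Of 21 PPAR targets and oxidation genes 5 were lower and 2 higher, with a median of -0.31 that was 0.33 as deposited. Acadm, a dehydrogenase of medium-chain fatty acids, was lower (-1.29, adjusted p = 0.000121), and the uncoupling protein Ucp2 (1.13) and the receptor Ppard (1.03) were higher. Cpt1a, the gate of mitochondrial oxidation, stood at 8.0 ± 0.11 and 7.87 ± 0.12 and Pck1, a PPAR target of glycerol synthesis, at 8.89 ± 0.24 and 8.93 ± 0.34, and neither passed (adjusted p = 0.528 and 0.902). Ppara was within background in both groups.

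Synthesis of fatty acids and sterols was higher at 4 of 19 genes and lower at 1 (median 0.28). Idi1, which makes an isoprenoid building block of cholesterol, was at 6.21, 6.19 and 6.75 in group A and at 8.22, 8.13 and 8.16 in group B, 3.45-fold lower (-1.79, standard error 0.15, adjusted p = 6.47e-06 from limma). Its other probe set differed by -0.52 without passing (adjusted p = 0.13). Fasn, the fatty acid synthase, was at 10.20, 9.86 and 10.13 against 8.84, 9.07 and 9.09 (1.06, standard error 0.30, adjusted p = 0.017) and also higher on its second probe set (1.11). Fasn was lost without group A replicate 1 or 3 or group B replicate 1. The sterol enzyme Dhcr7 (1.24) and the regulator Srebf2 (0.90) were higher. Of 19 genes of desaturation and eicosanoid synthesis 4 were higher and 2 lower (median 0.17), against the same shares of all genes. The prostaglandin E synthase Ptges (1.05), the leukotriene helper Alox5ap (0.94) and the desaturases Fads1 and Fads2 (0.63 and 0.80) were higher, and none of these 4 was called with the spikes as scale. The phospholipase Pla2g4a, which frees arachidonic acid, was lower (-0.66). The cyclooxygenase Ptgs2 did not pass (0.02, adjusted p = 0.974). Adipocyte genes gave 1 lower and 2 higher of 16. Lpl, which releases fatty acids from lipoproteins, was lower (-0.80, a call lost under each of the other 3 scalings) and the glucose carrier Slc2a4 was higher (1.03), while Adipoq, the defining adipokine, differed by -0.62 without passing (adjusted p = 0.0865).

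Cell cycle genes went both ways. Of 24, 7 were higher and 5 lower (median 0.31). Plk1, a kinase of mitotic entry, was at 7.75, 7.80 and 7.78 in group A and at 6.39, 6.25 and 6.15 in group B, 2.86-fold higher (1.51, standard error 0.23, adjusted p = 0.000425 from limma). The mitotic Aurka (1.11), Ube2c (1.07) and Birc5 (0.95) were higher with it. Rrm1, the ribonucleotide reductase subunit of DNA synthesis, was lower (-1.88, adjusted p = 3.45e-06), as were the proliferation antigen Mki67 (-1.04) and the replication clamp Pcna (-0.64), of which Mki67 was not called as deposited and the difference of Pcna became 0.05.

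Immediate early genes, the transcription factors and regulators that cells switch on within minutes of a stimulus, were higher at 12 of 20 and lower at 1, against 26.9% and 15% of all genes, with a median of 0.71 and positive under each scaling. Nr4a1, an orphan nuclear receptor induced by antigen receptor signals, was higher by 1.07 (adjusted p = 0.000571 from limma), Dusp1, a phosphatase of MAP kinases, by 0.91, and Junb by 0.86. Egr2 was at 7.63, 7.82 and 7.65 in group A and at 6.69, 6.89 and 6.99 in group B (0.84, standard error 0.15, adjusted p = 0.000924). Zfp36, which destabilises cytokine mRNA, was at 9.26, 9.29 and 9.35 against 8.81, 8.66 and 8.84 (0.53, standard error 0.10, adjusted p = 0.00174). Klf6 was lower (-0.54), and Fos differed by 0.88 without passing (adjusted p = 0.0673). After adjustment for gene length 2 were higher and 1 lower. The promoters of Egr2 and Zfp36 each hold 1 CArG box, the site of serum response factor, shown in capitals in RefSeq sequence of build GRCr8 (Egr2 chr20:21054392-21054691, minus strand, and Zfp36 chr1:92799059-92799358, minus strand). Of 12 genes of the list with a promoter sequence 4 hold the box on either strand, against 1.64% of all promoters. The others with the box are Egr1, also higher (0.67), and Klf6, which was lower.

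Egr2: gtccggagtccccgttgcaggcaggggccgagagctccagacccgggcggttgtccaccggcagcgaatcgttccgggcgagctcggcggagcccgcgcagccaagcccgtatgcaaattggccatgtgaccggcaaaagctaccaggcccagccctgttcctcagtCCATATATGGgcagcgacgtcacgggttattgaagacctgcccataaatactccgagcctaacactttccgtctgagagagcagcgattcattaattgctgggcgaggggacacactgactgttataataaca

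Zfp36: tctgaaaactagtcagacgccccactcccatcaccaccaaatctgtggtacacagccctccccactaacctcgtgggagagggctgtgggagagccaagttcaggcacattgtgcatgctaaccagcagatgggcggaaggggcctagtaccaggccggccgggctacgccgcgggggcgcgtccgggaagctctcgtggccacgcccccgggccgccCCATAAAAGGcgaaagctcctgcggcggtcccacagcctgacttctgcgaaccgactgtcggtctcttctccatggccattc

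Cells of the framework of the node and of neighbouring tissue were described because a dissected node can carry vessel, muscle or nerve. Of 17 stromal genes 6 were higher and 4 lower (median 0.46). The collagen gene Col1a1 (1.15), the pericyte receptor Pdgfrb (0.99) and Thy1 (1.09) were higher. Postn, a matrix protein, was at 8.79, 9.21 and 9.2 in group A and at 10.23, 10.75 and 10.48 in group B (-1.42, adjusted p = 0.000155 from limma), and the proteoglycan Dcn was lower too (-1.40). Without group D replicate 3 in the fit, 9 stromal genes were higher. Of 14 genes of vessel lining 4 were higher and 2 lower (median 0.24). The clotting factor Vwf was at 6.85, 6.69 and 6.92 against 5.70, 5.43 and 5.29 (1.35, standard error 0.22, adjusted p = 0.000606), and Madcam1, the address by which gut-homing lymphocytes enter, was higher by 1.24. Emcn, a mucin-like protein of vessel lining, and the angiopoietin receptor Tek were lower (-0.81 and -0.53), both calls lost as deposited and that of Tek also with the spikes as scale. The venule mucin Glycam1 did not pass (-0.28, adjusted p = 0.241).

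Smooth muscle genes had a mean level of 6.79 to 6.94 in group A and 6.14 to 6.21 in group B (median difference 0.77), yet only Synpo2 (0.82) and Smtn (0.86) of 15 passed. The call of Smtn was lost with 75th-percentile centring, with the spikes as scale and without any 1 array of groups A, B or C. Acta2, the smooth muscle actin, stood at 8.05 ± 0.04 and 7.28 ± 0.19 (adjusted p = 0.26 from limma). The fit takes its spread from all 4 groups, and without group D replicate 3, 8 of 15 were higher. Of 16 enteric neuron genes 2 were higher, the receptor Ret (0.73) and the peptide Vip, which was within background in group B and at 2.88 ± 0.07 in group A. Of 9 glial genes Metrn and Sox10 were higher, and of 9 mesothelial and keratin genes Krt8 (0.70) and Cdh1 (1.06), both lost with 75th-percentile centring and with the spikes. Leaving out 1 array of group A or B lost Ret on its brightest probe set, Vip, Sox10 and Cdh1 for at least 4 of the 6 arrays. On other probe sets Ret was higher by 1.77 and 1.44 (adjusted p = 7.02e-05 and 0.00852 from limma). Gut epithelium gave 1 of 13, Vil1, at least 1.56-fold higher. Of 10 erythroid genes the transferrin receptor Tfrc, which dividing lymphocytes also carry, was lower (-1.48) and Epb42 was higher, at least 1.20-fold. Hbb, the defining globin, stood at 11.51 ± 0.24 and 11.22 ± 0.26 and did not pass (adjusted p = 0.454). The part of these other cell types in the differences above was not tested.

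Of 9 genes that the study singled out as network nodes, as PCR targets or, for Il7r and Ackr3, in its discussion, 1 was lower between the routes, Il7r, and 1 higher, the adaptor Grb2 (0.55, standard error 0.10, adjusted p = 0.00138 from limma), and since the study chose them on these samples their count is no independent evidence. Grb2 was at 9.55, 9.75 and 9.72 in group A and at 9.10, 9.08 and 9.19 in group B, while its other probe sets differed by 0.34 and -0.16 without passing. By PCR the study saw no change of Grb2 with CLA, which is not a comparison between the routes. The matricellular Ccn2 and the protease inhibitor Timp1 differed by 0.52 and 0.83 (adjusted p = 0.386 and 0.205). Actg2, Acta2 and Ackr3 did not pass either, and Gal and Syt1 were near background. Aprt, the study's reference for PCR, was higher by 0.58 (adjusted p = 0.00433). Of 9 housekeeping genes 4 were lower and 2 higher, and Tbp (-0.17) and Pgk1 (0.01) did not pass (adjusted p = 0.414 and 0.962).

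Probe sets of 1 gene did not always tell the same story. Of 4525 genes with more than 1 probe set 1504 had a call. Of these, 926 were called lower on some probe set and 229 on all, and 585 were called higher on some and 70 on all. The probe sets beside the brightest carried more falls, 14.3% lower and 4.58% higher, than the brightest ones at 7.86% and 9.76%, and probe sets without a gene symbol gave 8.25% lower and 3.45% higher. Of 495 genes with at least 2 calls, 7 were called in both directions: Cdk5rap2 of the centrosome, Eprs1, the deubiquitinases Otud7b and Usp9x, R3hdm2, RT1-Ba and the glutamate carrier Slc1a3. Eprs1 was lower on 3 probe sets, by differences of -3.29, -2.17 and -1.80, and higher on 1 that was within background in group B (at least 1.28-fold). Cdk5rap2 gave -1.16 and 1.15, and Otud7b -1.59 and 1.04.

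Gene length went with direction over the whole array. The span of each gene was taken from RefSeq for assembly GRCr8, with no genome build named in the array data. In the quintile with the shortest genes, up to 7.13 kb, 4.15% were lower in group A and 36.3% higher, with a median of 0.59. The share lower rose to 23.0% in the quintile after the middle one and was 19.7% in the longest, where 15.9% were higher and the median was 0.01. Array by array, the longest quintile stood below the shortest by -0.43, -0.48 and -0.32 in the pups of group A, relative to each gene's mean, and above it by 0.13, 0.21 and 0.21 in group B and 0.18 to 0.25 in group C. Group D was at -0.13, -0.04 and 0.24, so its replicate 3 again stood with the gavaged pups. The GC content of the promoter went with the rises, from 15% higher in the lowest quintile to 33.2% in the highest, while the share lower stayed between 14.4% and 16.8%. The Gapdh 3'/5' ratio was higher in every pup of group A than in any of group B. The hexokinase ratio overlapped between them, at 2.84 to 4.96 in group A and 1.62 to 3.24 in group B. The part of RNA integrity or of these gradients in the gene differences was not tested. After adjustment for gene length the 2-fold calls were 2089 lower and 1325 higher of 20813 probe sets. Beside the lists for which it is given above, the adjustment turned the balance of genes lower and higher for class I and peptide loading (5 and 3), cell proliferation (7 and 5) and adipocytes (4 and 0).

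**Figure D5:**
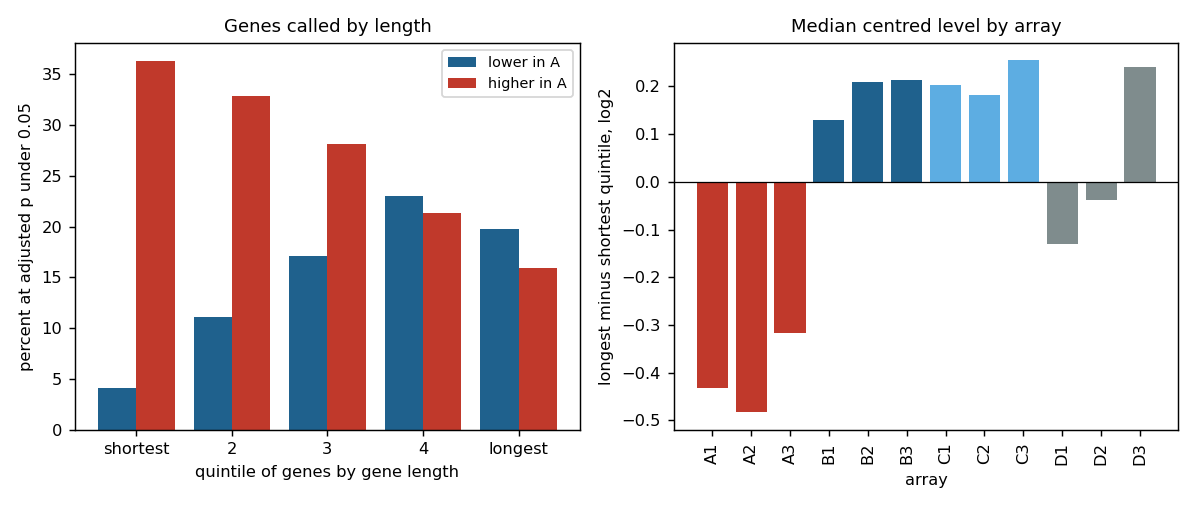
Left, percent of genes lower (blue) or higher (red) in milk-fed pups (adjusted p under 0.05) in quintiles of 2841 genes by gene length. Right, median centred log2 level of the longest quintile minus that of the shortest in each array (A milk, B gavage, C gavage in suckling only, D no CLA). The share higher falls from 36.3% to 15.9% with length, and the 3 arrays of group A lie at -0.48 to -0.32 while those of groups B and C lie above 0.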

How the data were processed

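Lymph node RNA of 12 pups, 3 in each of groups A to D, was measured on 1 array per pup. The deposited values came from the authors' MAS5 summary of each array, a linear signal intensity per probe set, with no scaling between arrays. The file holds 31099 probe sets, of which 57 controls were left out, and 30 zeros took the smallest positive value of all 12 arrays before the logarithm. Values were quantile normalized as log2 over the 12 arrays and raised to a floor of 1 on the linear scale. Gene symbols came from the platform annotation, with 20764 probe sets updated by gene number and 2 by accession against RefSeq (GRCr8) and 66 kept as given. In all 20826 probe sets carry 1 symbol, 436 several and 9780 none, and each of 14217 genes was represented by its brightest probe set.

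A mean per group was fitted to all 12 arrays with limma 3.58.1 in R 4.3.3, with empirical Bayes moderation and a variance trend, on 8 residual degrees of freedom. P-values were adjusted by the Benjamini-Hochberg method across all probe sets. A call needed an adjusted p under 0.05 with a 2-fold difference or more, and list members were counted at the adjusted p alone. Where every array of the dimmer group was within background, a fold is a lower bound after raising values to each array's background. Named genes were the 15 largest differences each way among 3626 calls with 1 symbol, no overlap of arrays and the brighter group above background, up to 6 members per list by adjusted p with members that did not pass, the study's network genes, and genes called in opposite directions. The RT1 genes and a few further list members were named after their values were seen. The members and the 39 gene lists were chosen with earlier results of these data known. The number of arrays limits the precision. Tested on simulated data with 31042 probe sets, the calls recovered 11, 31, 44 and 45 of 50 changed probe sets at 2-, 3-, 4- and 8-fold, with 9 false calls. The simulation drew independent noise and changed far fewer probe sets than were called here. Its counts therefore do not measure the power or the error of those calls. The alternatives were other scalings, floors, filters, variance models, probe set choices and leaving out each array, and, added after seeing the data, scaling to spikes and adjustment for gene length.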

Additional observations from a re-analysis of the deposited data

How the results depend on the processing

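The 2-fold counts of 2915 lower and 2051 higher probe sets stayed within 1.5 times except as follows. As deposited they were 1768 and 4816, with 2240 lower at an adjusted p alone in place of 4495. With a floor of 32 they were 1836 and 1248. With 1 probe set per gene 1148 were 2-fold lower and 2265 lower at the adjusted p alone. With spike scaling 3388 were higher at the adjusted p alone in place of 5229, and with adjustment for gene length 1325 were 2-fold higher. Leaving out 1 array gave 2471 to 3205 lower and 1530 to 2231 higher at 2-fold, and 3566 to 5327 and 3976 to 6242 at the adjusted p alone. Replicate numbers did not pair the samples, since deviations of same-numbered arrays correlated at -0.015 to 0.0052. A fit with the replicate block gave 2941 lower and 2061 higher, and 3 of 230 named calls were lost under it.

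As deposited, 43 of the 230 named calls were lost and 10 changed sign, to differences of 0.0757 for Bank1, 0.0481 for Pdia3, 0.0029 for Ctss, 0.23 for Hadhb, 0.0368 for Hadha, 0.0458 for Pcna, 0.0696 for Rpl19, 0.18 for Rpl11, 0.36 for Elovl5 and 0.22 for Ywhaz. Elovl5 was also turned by centring on the 75th percentile, to 0.0123. The cause of these changes beyond the shift of the whole array was not tested. The other settings turned no named call. Single arrays decided some: leaving out 1 array of group A or B lost 20 to 31 of the 230, 1 of group C 2 to 4 and 1 of group D none. Adjustment for gene length lost 29, among them Egr1, Egr2, Ier2, Klf2, Zfp36, C1qa, C1qc, Cd68, Mzb1, Tnfsf13, Tnf, Cd3e, Lat, Slc2a4 and Gpd1. Values raised to background lost 5: Vip, Epb42, Sox10, Vil1 and 1 probe set of Eprs1. Low signal limits the dimmest differences, since group A was within background on all its arrays at 280 of the lower calls and group B at 152 of the higher ones.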
